A study of Mus musculus with 4 samples.

Results

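The motile cilium and axoneme genes were 63 of the 32285 genes counted in 4 mouse lung sections. They were chosen by symbol alone (Cfap, Dnah, Dnai, Drc, Rsph or Tekt followed by a number), together with Foxj1, Ccdc153, Tmem212, Dynlrb2 and Tppp3, with a minimum of 20 unique molecular identifiers (UMIs, 1 per captured mRNA molecule) over all sections. Of 70 matching genes, 7 fell below the minimum, the nearest being Cfap221 with 16 UMIs, whereas the lowest retained were Cfap47 with 34 and Tekt3 with 41. The symbols also took in Dnah2os, an RNA from the strand opposite Dnah2, which was kept.

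Sections came from C57BL/6J mice with no transgene or deletion named, 1 male and 1 female per group. Vaped (V) mice had inhaled e-vapor of Peach Ice 70VG/30PG vape juice from JUUL pens in whole body chambers for 4 h daily on 5 d of each week during 9 wk, beginning at 6 to 8 wk of age, and Non-Vaped (NV) mice served as controls. Tissue was labelled as upper pulmonary branches. Each mouse contributed 1 section on a Visium slide, where every spot captures mRNA from a small region that can hold several cell types. Since a group held 2 mice, the lowest two-sided p an exact permutation of mice allows is 0.333.

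A motile cilium is a bundle of microtubule doublets that beats because dynein motors slide neighboring doublets past each other. Outer arm dyneins set beat frequency, inner arm dyneins shape the bend, and the nexin-dynein regulatory complex together with radial spokes coordinates the motors. In the lung, these structures belong to multiciliated cells of the conducting airways, which move mucus toward the trachea and stand beside secretory club cells. Foxj1 is the transcription factor that drives the motile cilium program, and RFX factors act with it on many axonemal promoters.

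Promoter sequences are shown for 5 of these genes to display an RFX half-site (GTTGCC, or GGCAAC on the other strand), which recurred in their promoters. RefSeq windows of 300 bases, 250 before and 50 after a gene start on GRCm38.p6, were matched for 50 of the 63 genes as 57 windows. The half-site was present in 23 member windows (40.35%), compared with 12.51% of all 32851 promoter windows of that length. The forkhead letters GTAAACA, or TGTTTAC on the other strand, are a separate motif that cannot overlap the half-site, and were present in 5.26% of member windows and 3.65% of all windows. Capitals mark the half-site, and every sequence reads 5′ to 3′ on the strand of the gene. Windows lay at chr9:44240427-44240726 (+) for Ccdc153, chr8:116504765-116505064 (+) for Dynlrb2, chr5:30281143-30281442 (+) for Drc1, chr16:90934800-90935099 (-) for Cfap298 and chr15:28203516-28203815 (+) for Dnah5.
Ccdc153: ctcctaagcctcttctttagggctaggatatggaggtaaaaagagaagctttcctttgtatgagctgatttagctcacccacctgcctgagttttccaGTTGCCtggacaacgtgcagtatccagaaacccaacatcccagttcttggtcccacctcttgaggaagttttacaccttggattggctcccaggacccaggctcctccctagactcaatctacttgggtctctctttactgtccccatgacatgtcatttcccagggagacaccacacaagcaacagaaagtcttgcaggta
Dynlrb2: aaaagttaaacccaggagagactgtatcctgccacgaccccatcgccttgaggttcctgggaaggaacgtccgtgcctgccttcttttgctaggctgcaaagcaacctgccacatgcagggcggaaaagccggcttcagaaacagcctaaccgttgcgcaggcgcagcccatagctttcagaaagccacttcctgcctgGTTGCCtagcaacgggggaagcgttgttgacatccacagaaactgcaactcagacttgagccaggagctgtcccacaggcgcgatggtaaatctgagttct
Drc1: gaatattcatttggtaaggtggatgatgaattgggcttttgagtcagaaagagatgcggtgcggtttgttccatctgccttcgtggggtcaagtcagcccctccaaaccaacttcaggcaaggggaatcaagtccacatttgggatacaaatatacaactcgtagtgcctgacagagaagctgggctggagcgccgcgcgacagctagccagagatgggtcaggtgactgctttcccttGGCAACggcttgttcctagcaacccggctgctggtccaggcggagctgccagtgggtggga
Cfap298: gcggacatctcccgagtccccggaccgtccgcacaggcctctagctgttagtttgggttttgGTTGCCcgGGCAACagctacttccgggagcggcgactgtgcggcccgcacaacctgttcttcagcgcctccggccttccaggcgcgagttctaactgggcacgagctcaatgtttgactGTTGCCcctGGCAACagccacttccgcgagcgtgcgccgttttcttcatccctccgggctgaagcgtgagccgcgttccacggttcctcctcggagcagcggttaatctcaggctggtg
Dnah5: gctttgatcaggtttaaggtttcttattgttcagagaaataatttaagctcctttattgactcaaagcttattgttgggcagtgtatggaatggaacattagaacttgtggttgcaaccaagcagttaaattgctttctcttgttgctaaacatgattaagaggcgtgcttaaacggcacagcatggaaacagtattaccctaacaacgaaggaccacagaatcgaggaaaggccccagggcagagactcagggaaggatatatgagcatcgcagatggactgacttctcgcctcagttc

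Ccdc153, Dynlrb2 and Drc1 each held 1 half-site, Cfap298 held 4, and the outer arm heavy chain Dnah5 held none in this window. A letter match describes the window and not a bound site. Among genes enriched in cilium-marker spots (defined below), 31.58% of 19 windows held the half-site, beside 38.46% of 13 windows of the other genes tested there, a comparison given without a test.

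Sections differed in depth and in tissue. Section values are listed throughout as NV male, NV female, V male, V female. Spots numbered 842, 473, 1565 and 2053 and UMIs 9386470, 6957392, 11880468 and 34308556, with median UMIs per spot between 6259 and 11355. All sections shared 233 spot barcodes, since each slide area carries barcodes from a common set. The summed level of 5 club cell markers, none at 0 in any section, was 12945, 2344, 311 and 13777 CPM (UMIs scaled to the same total in every section). Muc5b, a gel-forming mucin of airway secretory cells, had 12, 27, 0 and 1351 UMIs in the same order. Spots outside the parenchyma, a class set by the level of 6 alveolar and capillary markers, numbered 158, 125, 1 and 433. By these measures the V male section held almost nothing but parenchyma. Club markers and Muc5b, like the sum of the cilium genes below, were lowest in the V male and highest in the V female, and their part in any difference between V and NV was not tested. Cardiac muscle markers, at 6573, 7015, 18.2 and 3673 CPM, were also lowest in the V male but were highest in the NV female. Fewer ciliated cells in a section and less RNA per ciliated cell cannot be told apart in summed counts.

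Cilium transcripts were sparse in every section, and many were not detected in the V male. Summed over the 63 genes, the level was 540, 448, 414 and 750 CPM. NV mice averaged 494 ± 65.4 CPM (SD, n = 2) and V mice averaged 582 ± 238 CPM (SD, n = 2), with 1 V section below both NV sections and 1 above (exact permutation p = 1, two-sided). Tppp3, a tubulin polymerization promoting protein, gave between 40.4% (V female) and 54.5% (NV female) of member UMIs. Without Tppp3 the sum was 248, 204, 208 and 448 CPM in the same order of sections, where NV mice averaged 226 ± 31.3 (SD, n = 2) and V mice averaged 328 ± 170 (SD, n = 2) (exact permutation p = 0.667, two-sided).

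The V female section was highest for 54 of 63 genes, whereas 18.6% of the 16292 genes with at least 20 UMIs were highest there. In the V male section, 25 of the 63 genes had 0 UMIs, compared with 4.09% of those 16292 genes. The NV female section had 7 of the 63 at 0, and the NV male and V female sections had none. The minimum of 20 UMIs was summed over all sections, and the V female held the most UMIs. Many genes passed it only through that section, such as Cfap47 (1, 0, 0 and 33 UMIs), Cfap70 (1, 0, 0 and 112) and Dnah3 (2, 0, 0 and 132). They also included genes with many UMIs there, such as Dnah5 (11, 5, 0 and 566) and Cfap43 (11, 4, 3 and 425). Counts of genes highest there or at 0 elsewhere are thus in large part set by the filter. The 16292 genes passed the same minimum but were not matched to the members in level.

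**Figure D1:**
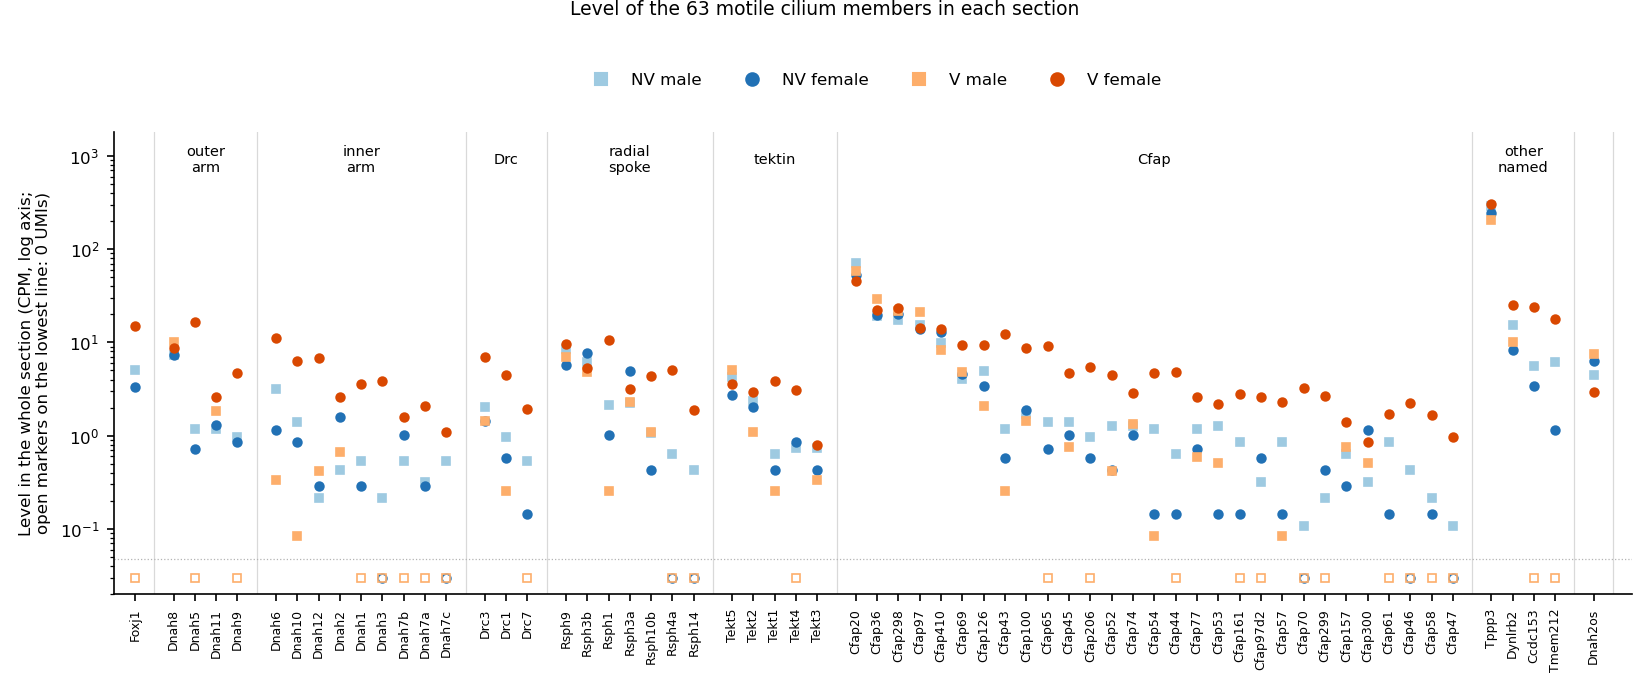
Level of each of the 63 genes in CPM (log axis) by section, grouped by role. Squares are males, circles females, blue NV and orange V, and open markers on the lowest line stand for 0 UMIs. The V female section is highest for 54 genes, and 25 genes are at 0 UMIs in the V male section.

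Foxj1 (chr11:116330704-116335399, minus strand, with this and later gene positions on GRCm38 from the GENCODE vM21 annotation) gave 48, 23, 0 and 514 UMIs. As levels these were 5.11, 3.31, 0 and 14.98 CPM, so that the V sections lay on either side of both NV sections. Ccdc153, a coiled-coil protein of the ciliary doublets (chr9:44240676-44247306), had 52, 24, 0 and 817 UMIs in the same order. Tmem212, a transmembrane protein of multiciliated cells (chr3:27866066-27896368), had 58, 8, 0 and 615 UMIs. All of these genes were at 0 in the V male and highest in the V female.

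Dynein heavy chains, the motors of the axoneme, were split. Dnah5, the outer arm heavy chain (chr15:28203752-28472052), had 11, 5, 0 and 566 UMIs. Dnah9, another outer arm heavy chain, had 9, 6, 0 and 162 UMIs. Dnah8, an outer arm chain known mainly from sperm, did not follow them and had 69, 51, 120 and 301 UMIs, which corresponds to 7.35, 7.33, 10.1 and 8.77 CPM.

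Inner arm chains were scarce outside the V female section. Dnah6 had 30, 8, 4 and 381 UMIs. Dnah12 had 2, 2, 5 and 236 UMIs, and Dnah10 had 13, 6, 1 and 219. All 9 inner arm genes were highest in the V female section, and 5 of them were at 0 in the V male. Dnah7a, Dnah7b and Dnah7c are close copies whose reads could be split between them, so their separate counts are uncertain.

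Regulatory complex and radial spoke genes showed both kinds of pattern. Drc1, a nexin-dynein regulatory subunit, had 9, 4, 3 and 152 UMIs, and Drc3 had 19, 10, 17 and 241. Rsph1, a radial spoke head protein, had 20, 7, 3 and 362 UMIs. Rsph9, another spoke head protein, was more even at 79, 40, 82 and 334 UMIs, or 8.42, 5.75, 6.90 and 9.735 CPM. Rsph3b was lower in both V sections, at 6.18, 7.62, 4.80 and 5.33 CPM, but its near copy Rsph3a could share its reads. Among tektins, filament proteins of the doublet wall, Tekt1 had 6, 3, 3 and 132 UMIs, whereas Tekt5 had 40, 19, 60 and 123.

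The 29 Cfap genes, cilia and flagella associated proteins, ranged from strongly uneven to nearly level. Cfap43 had 11, 4, 3 and 425 UMIs, or 1.17, 0.575, 0.253 and 12.4 CPM. Cfap20 (chr8:95420249-95434869), a small protein of the inner junction of the doublet, was instead lowest in the V female, at 70.7, 52.5, 58.2 and 45.0 CPM. Cfap36 was at 19.2, 19.8, 29.5 and 22.5 CPM, and Cfap298 at 17.3, 19.98, 21.6 and 23.6 CPM. Both genes were above NV in each V section.

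Levels of both V sections were above those of both NV sections for 9 of 63 genes (Cfap157, Cfap74, Cfap69, Rsph10b, Cfap36, Dnah11, Dnah12, Cfap298 and Dnah8), against 12.8% of all 16292 genes. Levels of both V sections were below both NV sections for Rsph3b alone, against 14.2% of all genes. For the other genes the groups overlapped. Dynlrb2, a dynein light chain with high expression in ciliated cells, had 146, 58, 121 and 872 UMIs and belonged to the overlapping genes. Its paralog Dynlrb1, a general cytoplasmic dynein chain that is not a member, was level at 195, 218, 200 and 198 CPM.

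Tested with edgeR's quasi-likelihood test on the whole sections, no cilium gene was called between V and NV. A gene was called when its Benjamini-Hochberg p was below 0.05 with a log2 difference beyond 0.25 either way, which 0% of the 14570 genes tested met, although 248 genes had an unadjusted p under 0.05 and DESeq2 called 8. Of the 40 cilium genes that passed the filter on low counts, none had an unadjusted p under 0.05. Their median log2 difference was 0.89, positive for 33 and negative for 7, while the median of all genes tested was 0.03. Foxj1 differed by 0.93 ± 1.95 (SE) on the log2 scale with an edgeR adjusted p of 0.9997, and Dnah5 by 3.20 ± 2.25 with the same adjusted p. With sex (the replicate block) as a term, 28 were positive and 12 negative with a median of 0.34, no gene was called, and Foxj1 turned to -0.84 ± 2.83, Ccdc153 to -0.40 ± 2.98 and Tmem212 to -0.21 ± 3.86.

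The absence of calls rested on both V sections being present. Without the V male, Dnah5 was called higher in V (log2 difference 4.16, edgeR adjusted p = 0.0424), and without the V female, Foxj1 (adjusted p = 0.0190) and Ccdc153 (adjusted p = 0.0177) were called lower. Either comparison sets 1 V mouse against 2 NV mice and assumes that the lone section varies as the NV sections do.

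Within each sex the differences pointed in opposite directions. Between the males, 27 of 63 genes were lower in V beyond the exact 95% interval of the count ratio and 5 were higher, compared with 20.2% and 32.5% of all 16292 genes. Between the females, 48 were higher in V and 4 lower, compared with 15.4% and 23.9% of all genes. Both applied to 24 of 63 genes, lower in the V male and higher in the V female, against 4.02% of all genes. Many of the 48 genes and of the 24 genes passed the minimum of 20 UMIs only through the V female. Both numbers are thus in large part set by that filter. Intervals cover counting error only and each ratio compares 1 mouse with 1 mouse, so that exposure, sex, individual and the tissue in the section cannot be told apart.

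Foxj1 was 4.53 times (95% interval 2.99 to 7.21) as high in the V female as in the NV female, whereas between males, with 0 UMIs in V and 48 in NV, the interval of the ratio reached from 0 to 0.0631. Dnah5 was 23.0 times (9.78 to 71.0) as high in the V female, and between males, with 0 UMIs in V and 11 in NV, the interval reached from 0 to 0.315. Dynlrb2, which was detected everywhere, was 3.05 times (2.34 to 4.05) as high in the V female and 0.655 times (0.510 to 0.839) in the V male. Tppp3 gave smaller ratios of 1.24 (1.18 to 1.31) between the females and 0.706 (0.668 to 0.746) between the males. Cfap20 was lower in V in both sexes, by ratios of 0.858 (0.765 to 0.965) and 0.823 (0.739 to 0.917).

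**Figure D2:**
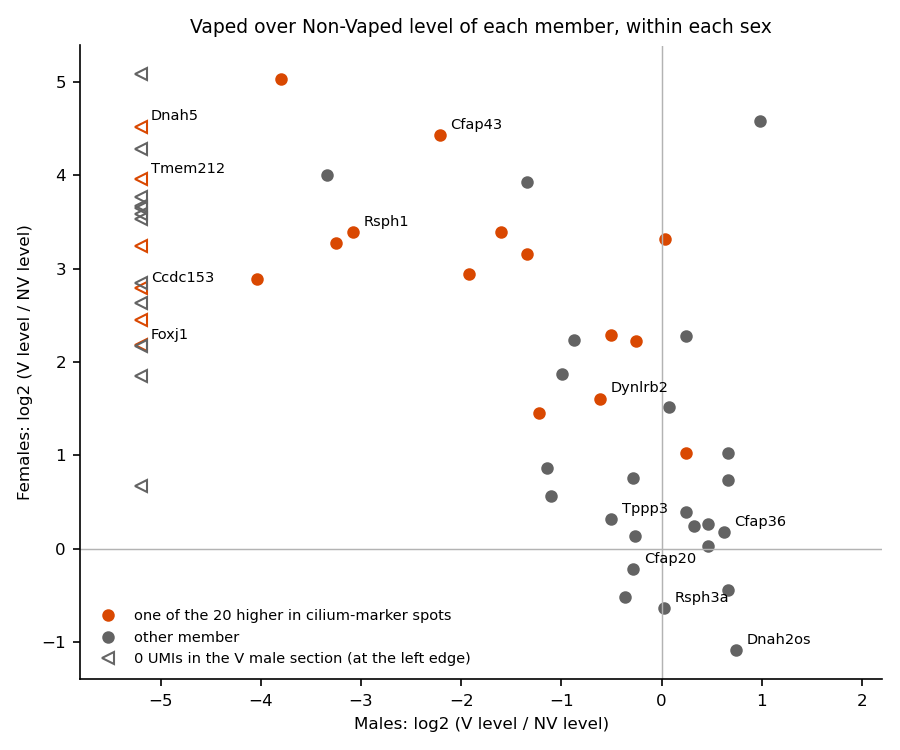
Log2 ratio of V to NV level for each gene in males (horizontal axis) and females (vertical axis). Filled points are the 38 genes with a ratio in both sexes, with those enriched in cilium-marker spots in orange. Left-pointing markers are 18 genes at 0 UMIs in the V male, and 7 genes at 0 in the NV female are not drawn. Most enriched genes fall to the upper left, higher in V between females and lower in V between males, whereas Tppp3, Cfap20 and Cfap36 lie near the center.

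Relative to Foxj1, some axonemal genes also differed between sections. Listed as NV male, NV female, V female, there were 22.9 (exact 95% interval 10.7 to 44.7), 21.7 (6.46 to 58.5) and 110 (97.5 to 124) Dnah5 UMIs per 100 Foxj1 UMIs. Dnah12 had 4.17 (0.491 to 15.9), 8.70 (0.994 to 35.2) and 45.9 (39.2 to 53.7), and Cfap43 had 22.9 (10.7 to 44.7), 17.4 (4.37 to 50.9) and 82.7 (72.5 to 94.2) per 100 Foxj1 UMIs. Intervals of the V female thus lay above those of both NV sections for these genes, and did so for Dnah3 and Cfap70. All of them rest on few NV UMIs, such as 11 and 5 for Dnah5, 2 and 2 for Dnah12 and 11 and 4 for Cfap43. Each also passed the minimum UMI count for members only through the V female. Their excess in that section is therefore not independent of the filter. Ccdc153 did not separate from both NV sections, at 108 (71.8 to 164), 104 (56.4 to 193) and 159 (142 to 178). Nor did Dnah6, Dnah9, Dnah10, Drc1, Drc3, Drc7, Rsph1, Cfap206 and Cfap52, whose V female intervals overlapped those of both NV sections. Tmem212 had 121 (81.0 to 181), 34.8 (13.5 to 80.6) and 120 (106 to 135), overlapping the V female in the NV male alone. Many genes ran the other way, with V female intervals below those of both NV sections. Cfap20 had 1383 (1031 to 1895), 1587 (1041 to 2535) and 301 (272 to 333). Tppp3 had 5708 (4293 to 7761), 7374 (4898 to 11665) and 2021 (1850 to 2212). Dnah8, Rsph9, Rsph3b, Tekt5, Tekt2, Cfap36, Cfap298, Cfap410 and Cfap97 did the same. The V male cannot be placed on this scale because it had no Foxj1 UMI. These ratios were chosen after the values were seen and compare single sections without a test.

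To locate cilium genes within the tissue, spots were divided by a separate list of 28 cilium markers that contains no member. In each section the 10% of spots of at least 1000 UMIs with the highest marker CPM were taken as cilium-marker spots, giving 81, 46, 156 and 201 spots. The marker level at the boundary was 473 CPM for the lowest spot inside and 472 for the highest outside in the NV male, then 316 and 315, 445 and 444, and 639 and 636. Sec14l3 gave 91.6% of marker UMIs in the V male and between 36.5% and 46.1% in the other sections, and 11 of the 28 markers were at 0 in the V male. Mlf1 gave a further 29.1%, 32.9%, 0.0909% and 11.6% of marker UMIs in section order. Neither gene followed Foxj1 over the sections, with Sec14l3 at 107, 70.0, 170 and 142 CPM and Mlf1 at 67.3, 50.0, 0.168 and 45.1 CPM. The other 26 markers were at 304, 194, 44.9 and 981 CPM inside the class. The class therefore rested on different markers in different sections. In the V male its name says only how spots were picked. Median UMIs per spot were lower inside than outside the class in every section, with 4660 to 9006 inside and 6503 to 11862 outside.

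Outside the V male section, cilium genes were concentrated in these spots. With spots of each class summed per section and the section as a term of the fit, 22 of 34 genes tested were higher in cilium-marker spots and none lower, whereas 1.64% of all 13393 genes were called higher. The median log2 difference of the 34 genes was 2.26, against -0.03 for all genes tested. The same call was made for 17 of the 34 by DESeq2 and for none when the section was not a term of the fit. A further 29 genes did not pass the filter on low counts and were not tested.

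The largest differences belonged to Dnah5, Foxj1 and Tmem212. Dnah5 differed by 3.91 ± 0.34 (log2, SE; adjusted p = 9.98e-07), Foxj1 by 3.51 ± 0.26 (adjusted p = 9.58e-08) and Tmem212 by 3.36 ± 0.22 (adjusted p = 2.72e-08) in edgeR's test. Cfap206 (3.30), Ccdc153 (3.27), Drc1 (3.17), Cfap52 (3.15), Cfap43 (3.14), Cfap54 (2.86) and Dnah9 (2.84) completed the 10 largest. Called differences over 1 on the log2 scale were found for 20 genes, which are termed spot-enriched below. By role, these comprised Dnah5 and Dnah9 of the 4 outer arm chains tested, both inner arm chains tested (Dnah6 and Dnah10), both Drc genes tested, 2 radial spoke genes, Tekt1, Foxj1, 7 Cfap genes, Ccdc153, Tmem212 and Dynlrb2.

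Counts behind the contrast came mostly from the V female. Foxj1 had 27 UMIs inside and 21 outside the class in the NV male, then 14 and 9, 0 and 0, and 275 and 239. As levels, these were 38.4 and 2.42 CPM, 28.9 and 1.39 CPM, and 72.1 and 7.84 CPM in the sections that had any. Dnah5 had 3 and 8 UMIs, 5 and 0, 0 and 0, and 378 and 188 in the same order. The direction was shared by all 20 spot-enriched genes in 3 sections, but by 5 of 20 in the V male. Since these genes were selected by the same contrast, their agreement is not independent of it. Of the 29 genes not tested, 23, 12, 3 and 29 were higher inside in section order. Of the 14 tested but not spot-enriched, 12, 9, 9 and 10 were.

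Leaving out the V female reduced the call to 4 of 18 genes tested (Ccdc153, Tmem212, Dynlrb2 and Tppp3), and leaving out the V male raised it to 34 of 43. With the marker list reduced to 26 genes by removal of Sec14l3 and Mlf1, an alternative added after the data were seen, 16 of 31 were called. Club markers were higher in the same spots. Of 5 tested, 4 were called higher, including Scgb1a1 (2.67 ± 0.41) and Scgb3a2 (3.78 ± 0.25), and Muc5b was higher by 3.34 ± 0.26, whereas none of the markers of alveolar type 1 cells (5 tested), alveolar type 2 cells (6), fibroblasts (4) or mesothelium (5) was called in either direction. Of 5 smooth muscle markers Cnn1 was called higher (1.15), and 3 of 5 adipocyte markers and 1 of 6 cardiac markers were called lower. The part of club cells and of these other tissues in the contrast was not tested.

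**Figure D3:**
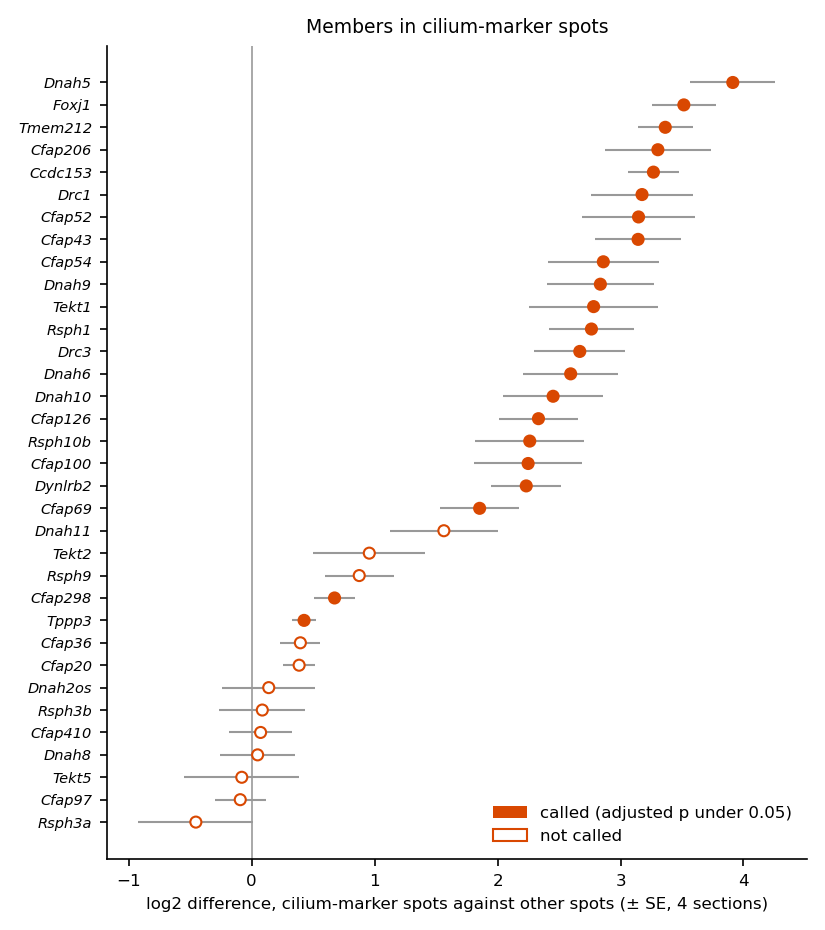
Log2 difference between cilium-marker spots and the other spots of the same section for each of the 34 genes tested, with bars of 1 SE over 4 sections and filled points for called genes. A group of 20 called genes lies between 1.85 and 3.91, and Tppp3 and Cfap298 are called below 1.

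For the other genes tested, the difference was small or did not pass the test. By edgeR, Tppp3 was called with a small difference of 0.43 ± 0.10 (adjusted p = 0.0197) and Cfap298 with 0.67 ± 0.17 (adjusted p = 0.0396). Dnah8 (0.05 ± 0.30), Tekt5 (-0.08 ± 0.47), Cfap410 (0.07 ± 0.26), Rsph3b (0.09 ± 0.35) and Cfap97 (-0.09 ± 0.21) had the differences nearest 0, with edgeR adjusted p between 0.980 (Cfap97) and 0.9998 (Dnah8 and Tekt5). Tppp3 had 361 and 286 CPM inside and outside the class in the NV male, then 372 and 234, 257 and 202, and 393 and 292, higher inside in 4 of 4 sections. Cfap20 had 81.0 and 70.0, 82.7 and 50.3, 56.1 and 58.5, and 66.4 and 42.4 CPM, higher inside in 3 of 4, and did not pass edgeR's test (0.39 ± 0.13, adjusted p = 0.161).

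**Figure D4:**
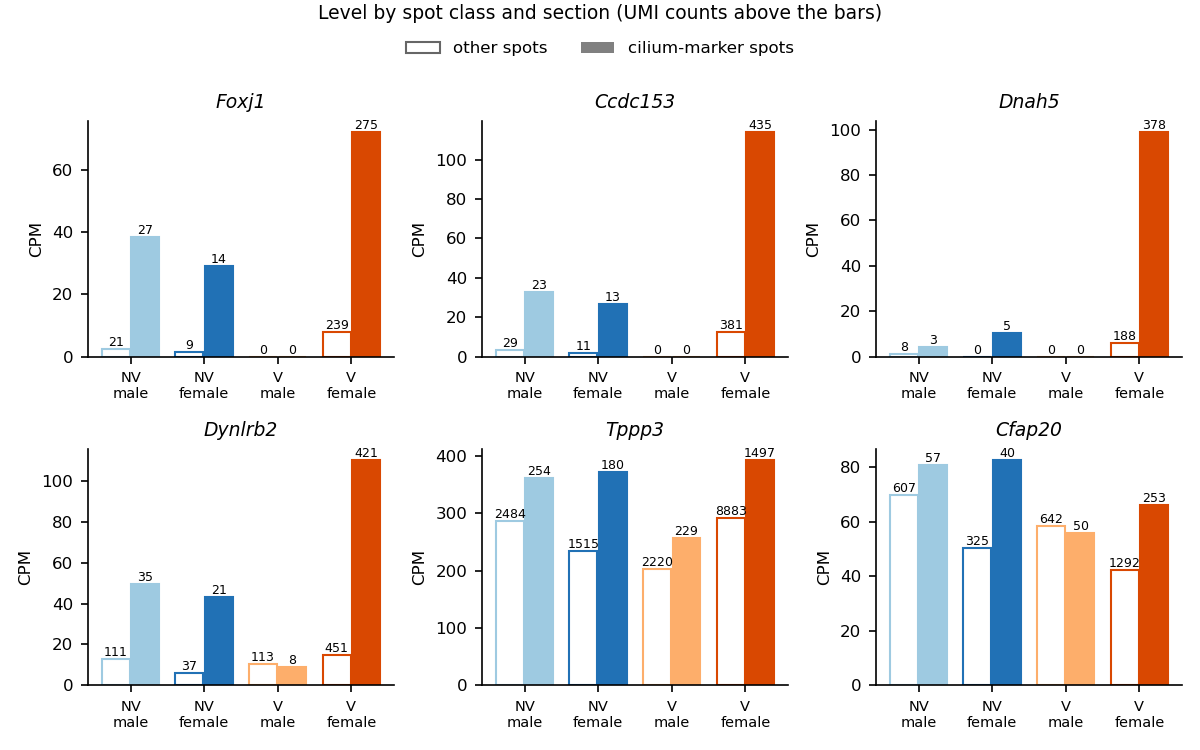
Level in CPM of 6 genes in cilium-marker spots (filled bars) and other spots (open bars) of each section, with UMI counts above the bars. Foxj1, Ccdc153 and Dnah5 have 0 UMIs in both classes of the V male section, while Tppp3 and Cfap20 are present in both classes of every section.

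Summed over the 20 spot-enriched genes, the whole-section level was 61.2, 35.4, 23.0 and 206 CPM. Inside the cilium-marker spots the sum was 269, 203, 21.3 and 963 CPM in the same order. In the V male it did not exceed the 23.1 CPM of the other spots. The 13 other tested genes without Tppp3 were nearly level over whole sections at 169, 157, 179 and 158 CPM. Both sets were defined on these sections, so this is a description.

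Set against club markers, the order of the sections changed. Per 1000 club marker UMIs there were 4.72, 15.1, 73.9 and 14.9 UMIs of spot-enriched genes. On this scale the V female lay near the NV female and above the NV male. The V male value rests on 3695 club marker UMIs, of which Scgb1a1 gave 3074. Its 273 UMIs of spot-enriched genes included 121 of Dynlrb2, 57 of Cfap69 and 25 of Cfap126, whereas 6 of the 20 genes, Foxj1 among them, had none.

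Within cilium-marker spots alone, no gene was called between V and NV. Because the class rested almost wholly on Sec14l3 in the V male, this comparison and the interaction below do not set like spots against like. Of 9591 genes tested, 0% were called (196 at an unadjusted p under 0.05, and 2 by DESeq2), and 11 cilium genes passed the filter with a median log2 difference of 0.39, against 0.01 for all genes. Foxj1 differed by 0.26 ± 1.35 and Ccdc153 by 1.06 ± 1.49 (edgeR adjusted p = 0.9998 for both). Without the V male, 18 of 33 genes tested were called higher in the V female, among them Dnah5 (3.91), Cfap43 (3.41) and Foxj1 (1.12). Without the V female, Foxj1, Ccdc153, Tmem212 and Dynlrb2 were called lower in the V male. Without a filter on low counts, 4 of 63 were called higher.

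The spot contrast itself was compared between groups by an interaction of spot class and group. No cilium gene was called, and 0.0149% of 13393 genes were called in all. Dnah8 (-1.27 ± 0.59) and Foxj1 (-0.99 ± 0.48) had unadjusted p of 0.0392 and 0.0493 and an edgeR adjusted p of 0.9998. Dynlrb2 was called by edgeR without the V female (log2 difference -2.55, adjusted p = 0.00956), and its level in the V male was 8.97 CPM inside and 10.3 CPM outside cilium-marker spots, compared with 49.7 and 12.8 CPM (NV male) and 43.4 and 5.72 CPM (NV female).

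Parenchyma spots numbered 684, 348, 1564 and 1620 and were also tested on their own. None of the 35 cilium genes tested was called, and neither was any of the 14348 genes (0%), although 380 had an unadjusted p under 0.05 and DESeq2 called 9. Their median log2 difference was 0.30, against 0.01 for all genes. Without the V male, Ccdc153 (1.93), Dnah5 (2.46), Cfap65 (3.49) and Cfap43 (3.61) were called higher in V, and without the V female Foxj1, Ccdc153, Tmem212 and Tppp3 were called lower. Summed without Tppp3, the 62 genes were at 256, 215, 208 and 336 CPM in parenchyma spots. Outside the parenchyma they were at 222, 190 and 581 CPM in the other sections, and the single such spot of the V male had none.

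In the sections other than the V male, cilium genes were highest in the spots where club markers were highest. Spots were divided into quintiles by club marker CPM within each section. The 62 genes without Tppp3 were at 157 CPM in the lowest and 417 CPM in the highest quintile of the NV male, then 157 and 365 CPM for the NV female and 229 and 1054 CPM for the V female. In the V male they were at 192, 210, 213, 197 and 218 CPM from the lowest to the highest quintile, without a steady order. Its highest quintile held only 794 CPM of club markers, whereas that of the NV female held 12537 CPM. In the V female, most of the step lay between the next quintile, at 325 CPM, and the highest. Tppp3 behaved differently, with 181 CPM in the lowest, 381 CPM in the middle and 345 CPM in the highest quintile of the V female.

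**Figure D5:**
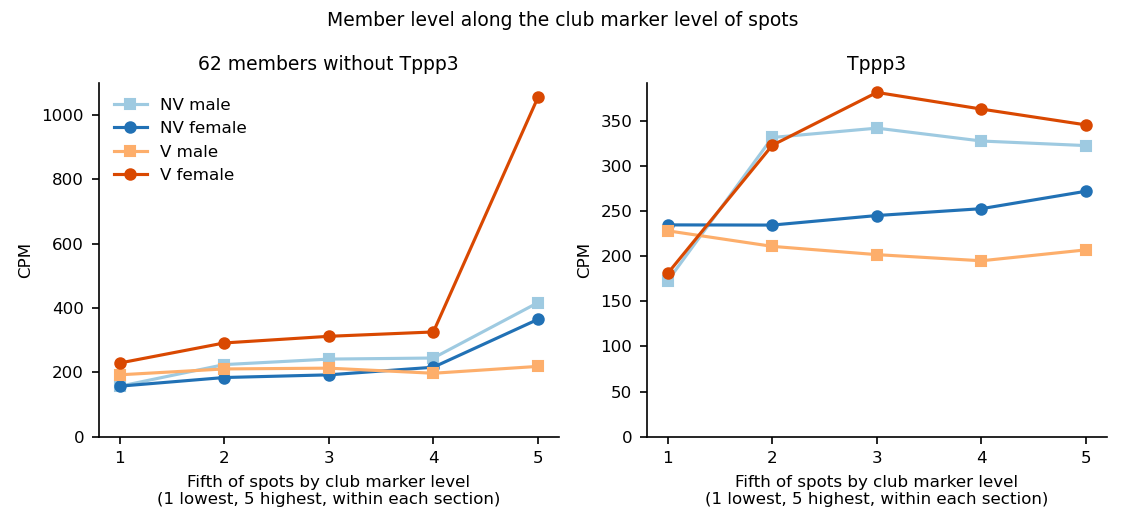
Level in CPM of the 62 genes without Tppp3 (left) and of Tppp3 (right) in quintiles of spots ordered by club marker level within each section. The 62 genes reach 1054 CPM in the highest quintile of the V female, 417 and 365 CPM in those of the NV male and NV female, and 218 CPM in that of the V male.

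Spots with many cilium transcripts were few. The 5% of spots with the most UMIs of the 62 genes held 26.7%, 23.7%, 21.4% and 42.4% of those UMIs. The highest count in a single spot was 145, 72, 20 and 242.

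To compare shares of spots at 1 depth, spots were thinned to 3000 UMIs and shallower spots were left out (111, 52, 202 and 224). A UMI of any of the members without Tppp3 was then present in 48.6% of 731 spots (exact 95% interval 44.9 to 52.3), 41.8% of 421 (37.0 to 46.7), 46.7% of 1363 (44.1 to 49.4) and 63.5% of 1829 (61.2 to 65.7). Spots rich in cardiac muscle markers, a tissue without motile cilia, gave 36.6%, 38.6% and 64.0% in the sections other than the V male, which had no such spot. In none of these sections did the interval over all spots lie clear of that of its cardiac-rich spots (28.4 to 45.3 in the NV male and 56.6 to 70.9 in the V female, with the NV female interval of 37.0 to 46.7 inside a wider one from 57 spots). Here and below, all spots include the cardiac-rich spots. Overlap of these intervals therefore cannot show whether cardiac-rich spots differed from the remaining spots. Median depth before thinning was 10618, 11321, 6903 and 13145 UMIs in all spots and 9990, 26553 and 30371 in cardiac-rich spots.

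For Foxj1, 11 of 731, 6 of 421 and 46 of 1829 spots (the last 2.52%) had a UMI in the sections other than the V male, beside 1.49%, 0% and 4.30% of cardiac-rich spots, the second of which was 0 of 57 spots and allows up to 5.26% of spots with a UMI. At this depth the NV male share was close to, and the V female share below, that of its cardiac-rich spots. Shares over all spots, which include these mixed spots, thus did not separate Foxj1 from them, unlike the summed levels of cilium-marker spots above. The 20 spot-enriched genes summed to less in cardiac-rich spots (31.3, 16.3 and 127 CPM) than over the same whole sections (61.2, 35.4 and 206 CPM). In the V male, Foxj1 had a UMI in 0 of 1363 spots. A count of 0 allows up to 0.220% of spots with a Foxj1 UMI at this depth and does not limit how many spots hold the transcript. Ccdc153 was present in 5.19% of V female spots (4.22 to 6.31) and 2.69% of its cardiac-rich spots (0.878 to 6.16), with overlapping intervals.

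Other parts of the cilium were described from lists that contain no member. Dynein assembly factors, which fold the motors in the cytoplasm, were called higher in cilium-marker spots for 2 of 5 tested, Zmynd10 (2.51 ± 0.40) and Dnaaf3 (1.49 ± 0.38). Docking, intermediate chain and related axonemal genes were called for 2 of 8, Dnaic2 (2.74 ± 0.40) and Wdr78 (2.67 ± 0.37). Of 5 regulators of the multiciliated program tested, Myb was called (2.53 ± 0.41). Intraflagellar transport genes, which also build non-motile cilia, were called for 2 of 25, Traf3ip1 (1.41 ± 0.27) and Dync2li1 (0.89 ± 0.20). Between V and NV, none of these lists had a called gene in whole sections, with median log2 differences of 0.26 for 7 assembly, 0.53 for 9 docking, 0.35 for 6 regulator and 0.20 for 25 transport genes.

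Ttc25, a docking protein of the outer arm, had 6, 10, 4 and 688 UMIs. Gmnc, an early inducer of multiciliated cells, was counted 26 times in the V female and 0 times elsewhere. Transport genes summed to 474, 435, 555 and 492 CPM in the same order, which places the V male highest.

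The genes most like the summed members over spots were found by correlating log-scaled levels within each section and averaging over sections. Cbr2, Aldh1a1, Actg1, Hopx, Emp2, Scgb1a1, Cyp4b1, Neat1, Prdx6 and Ddx5 led the 13756 genes compared, excluding members. Cbr2, a carbonyl reductase of club cells, had r of 0.45, 0.37, 0.02 and 0.38 over the spots of each section. All of these correlations are weak, come from spots that share library and depth, and are given as a description. With Tppp3 removed from the sum, only 3 of the 10 were shared (Scgb1a1, Cbr2 and Aldh1a1), and Scgb1a1 led. Muc5b was listed next, but its mean is over 3 sections because it had no UMI in the V male, so its place is not comparable with genes averaged over 4.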

How the data were processed

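Visium spatial sections of 4 mouse lungs were analysed. The deposited files hold raw UMI counts per gene and spot, which the authors made with Space Ranger against the 10x mouse reference for GRCm38, and the submitters' processing notes also name Seurat 4.0.3. Replicates were not pooled. Counts were summed per section or spot class, scaled to CPM and tested with edgeR 4.0.16 in R 4.3.3 (TMM, filterByExpr, quasi-likelihood test, Benjamini-Hochberg adjustment over all genes tested, adjusted p under 0.05 and log2 difference over 0.25). DESeq2 1.42.0 served as an alternative. Spots are not replicates and each mouse is 1 sample. Sums, thinning, intervals and promoter searches used Python 3.11.15. Intervals, and the limits that a count of 0 allows (3 UMIs), cover counting error only. The fits were tested on simulated data. No doublet caller or deconvolution was run. Parenchyma spots had at least 50% of the level over all spots of Calcrl, Tmem100, Cldn18, Hopx, Sftpb and Sftpc. Members and gene lists were chosen with earlier results of these data known. Named genes were the 5 genes named by symbol, the 3 with the most UMIs per role, those called between V and NV, the 10 largest and 5 smallest differences of the spot contrast and the 10 nearest non-members, and genes outside this rule were chosen after their values were seen.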

Additional observations from a re-analysis of the deposited data

Results flagged for a closer look

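Ratios of V to NV level pointed in opposite directions in the sexes, lower in V between males and higher in V between females, with the counting interval on either side of 1, for 24 of the 63 genes. The difference between the sexes was not tested, since each sex held 1 mouse per group. Many of these genes, such as Dnah5, Cfap43, Cfap44 and Rsph4a, passed the minimum of 20 UMIs only through the V female. Between females the ratio was 4.53 for Foxj1, 6.90 for Ccdc153, 15.6 for Tmem212, 3.05 for Dynlrb2 and 1.24 for Tppp3. Among dynein heavy chains it was 23.0 for Dnah5, 5.48 for Dnah9, 9.66 for Dnah6 and 7.40 for Dnah10. For other axonemal genes it was 13.6 for Drc7, 10.5 for Rsph1, 9.48 for Cfap206, 21.5 for Cfap43 and 32.6 for Cfap54. The others were Cfap44 at 33.9, Cfap161 at 19.5, Cfap57 at 16.0, Cfap65 at 12.8, Dnah1 at 12.6, Cfap61 at 12.0, Tekt4 at 3.62 and Cfap126 at 2.74. Dnah7c and Rsph4a had no UMI in the NV female, and the lower ends of their intervals were 1.99 and 9.46. The opposite-strand RNA Dnah2os ran the other way, higher in V between males and lower between females at 0.470. Club marker levels differed between the sections in the directions of the 24 genes, from 12945 to 311 CPM between males and from 2344 to 13777 CPM between females, and their part was not tested.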

How the results depend on the processing

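The 2 mice per group limit every comparison of V with NV, and the V male section, almost wholly parenchyma, and the V female section, the deepest, decide most values. Leaving out 1 mouse at a time, the cilium genes called between V and NV ranged from 0 to 2 in whole sections, 0 to 4 in parenchyma spots and 0 to 18 within cilium-marker spots, those called in the spot contrast from 4 to 34, and those in the interaction from 0 to 1. In the spot contrast (22 called), 50 were called with no filter on low counts, 8 with the top 20% of spots, 2 with spots thinned to 3000 UMIs and 0 with no replicate block. Within cilium-marker spots 4 were called with no filter. With the replicate block, no member was called between V and NV, and the log2 difference in whole sections became -0.84 for Foxj1, -0.40 for Ccdc153 and -0.21 for Tmem212. Replicate numbers stand for sex only, and deviations of same-numbered mice correlated at 0.324. The cause of these changes was not tested.

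Direction changed in single genes. Leaving out 1 mouse at a time, whole-section log2 differences ran from -8.38 to 1.89 for Foxj1, -8.48 to 2.46 for Ccdc153, -8.20 to 3.03 for Tmem212, -6.26 to 4.16 for Dnah5, -0.38 to 1.15 for Dynlrb2 and -0.52 to 0.25 for Tppp3, each lowest without the V female. In the spot contrast, genes near 0 turned, with ranges of -0.16 to 0.38 for Dnah8, -0.65 to 0.29 for Rsph3b, -0.47 to 0.75 for Tekt5, -0.20 to 0.27 for Cfap410 and -0.19 to 0.020 for Cfap97. Dnah8 was also -0.0026 with no filter and -0.075 with the top 5% of spots. Rsph3b was -0.084 by DESeq2, -0.059 with no replicate block and -0.063 with the top 20%. Tekt5 was 0.12, 0.22 and 0.11 under these settings. Cfap410 was -0.0099 by DESeq2, -0.13 with the top 20% and -0.012 with the shorter marker list. Cfap97 was 0.33 with thinned spots. Of the other single-gene alternatives in the spot contrast, 225 kept direction and call, 34 kept direction but lost the call and 3 gained it, and in whole sections 65 kept both and 1 gained the call.

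The summed level became 248, 204, 208 and 448 CPM without Tppp3, 587, 497 and 714 CPM in parenchyma spots of all but the V male, and 379 and 804 TMM-scaled CPM in the V male and V female. The share of spots with a UMI of any member was 41.7, 36.0, 33.0 and 47.8% thinned to 1000 UMIs, 91.9, 86.7, 85.6 and 95.4% thinned to 5000, 89.1, 89.4, 86.7 and 94.5% not thinned, and 47.5, 39.7, 34.1 and 59.9% at 2 UMIs or more. Of the 10 nearest genes, 5 were shared by Spearman correlation and 3 without Tppp3.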
